A study of Mus musculus with 12 samples.

Results

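Splenic CD4+ T cells were set against PreMegE cells, the pre-megakaryocyte/erythrocyte progenitors of bone marrow, on 6 of the 12 expression arrays of the series. The 2 CD4+ T cell arrays held mature cells of the spleen sorted as positive for CD4 and negative for CD8, B220 and NK1.1. The 4 PreMegE arrays held bone marrow cells sorted as positive for cKit and CD150 and negative for lineage markers, Sca1, CD105 and CD41. The other 6 arrays, 3 of hematopoietic stem cells (HSC) and 3 of multipotent progenitors (MPP), entered the same model and served as a backdrop. Every population came from C57Bl/6 mice of 10 to 12 weeks, and the labels give no treatment and no altered allele. The T cell and PreMegE arrays came from 2 different earlier studies, so cell type, tissue of origin and study cannot be told apart in this comparison. The labels do not say that arrays of a group came from separate animals, so p-values measure the spread between arrays, which may be technical. The labels describe the fourth PreMegE array as a further replicate 3; its values correlated with those of the third at r = 0.989 across genes, within the 0.984 to 0.992 of all PreMegE pairs, and it was kept as an array of its own.

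A CD4+ T cell recognises peptide on MHC class II through its T cell receptor, whose variable chains signal through the CD3 chains to tyrosine kinases and adaptor proteins. A PreMegE cell is a bipotent progenitor from which megakaryocytes and red cells descend, and GATA1, its partners and KLF1 switch on the genes of those lineages. Mature T cells of an unchallenged mouse are for the most part resting, whereas bone marrow progenitors divide. All values below are log2 of the deposited microarray intensity, with 1 probe set per gene. A gene is said to have risen, fallen or been called where its adjusted p in limma was under 0.05, and a difference is CD4+ T cell minus PreMegE on the log2 scale with its standard error (SE).

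The arrays of each population lay close together. The pair of CD4+ T cell arrays correlated at 0.985 across the 18193 genes, and T cell and PreMegE arrays at 0.876 to 0.886. The log2 ratio of 3' over 5' control probe sets of the actin transcript differed between the groups. It was 0.99 and 1.13 on the CD4+ T cell arrays, against 4.65, 3.78, 3.61 and 3.49 on the PreMegE arrays, with the first PreMegE array the highest. For the Gapdh transcript the ratio was 2.55 and 2.66 on the CD4+ T cell arrays, against 4.39, 3.55, 3.60 and 3.12 on the PreMegE arrays, a smaller gap. The cause of these differences and their part in the results were not tested.

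CD4+ T cells and PreMegE cells differed in a large set of genes, split evenly between the directions. Of 18193 genes, 6030 were called (33.1%), 2973 higher in CD4+ T cells (16.3%) and 3057 lower (16.8%). A difference of at least 2-fold was also reached by 1778 of the higher genes (9.77% of all genes) and 1759 of the lower ones (9.67%). At 64-fold or more, 56 genes were higher and 28 lower. The arrays of the 2 groups did not overlap in 7984 genes (43.9%). The median difference over all genes was -0.06. The 12 arrays as deposited after RMA had medians of 14.40 to 15.60 on the linear scale. With medians that close, an even split and a small median difference are in part built in. In such bulk samples a smaller share of cells that hold a transcript and less of it per cell cannot be told apart. Where a called gene had a second probe set, that probe set was called in the same direction for 1533 of 3619 genes (42.4%) and in the opposite direction for 104, and a gene below is named with its second value where the call ended. The scatter of the mean levels shows genes far from the diagonal on both sides.

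**Figure D1:**
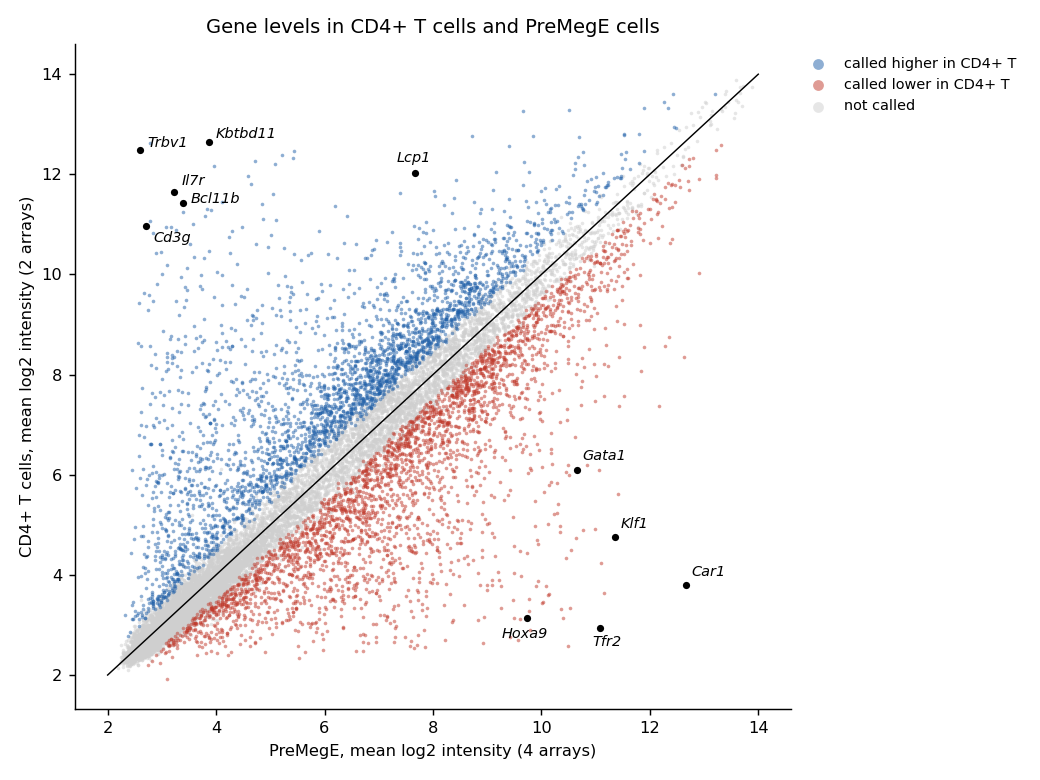
Mean log2 intensity of 18193 genes on the 4 PreMegE arrays (horizontal axis) and on the 2 CD4+ T cell arrays (vertical axis), 1 point per gene, coloured by the call. Trbv1, Kbtbd11, Il7r, Bcl11b, Cd3g and Lcp1 stand above the diagonal of equal level, and Car1, Tfr2, Hoxa9, Klf1 and Gata1 below it.

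The marker genes followed the labels. Cd3g, a signalling chain of the T cell receptor complex, read 11.21 and 10.73 in CD4+ T cells, against 2.61, 2.87, 2.66 and 2.73 in PreMegE. Both T cell arrays lay far above all 4 PreMegE arrays, with a difference of 8.25 ± 0.17 (adjusted p = 2.09e-14). Klf1, the zinc finger factor that activates red cell genes, read 4.43 and 5.07 on the CD4+ T cell arrays, against 11.03, 11.19, 11.79 and 11.45 on the PreMegE arrays, and fell by 6.62 on the log2 scale (SE 0.22, adjusted p = 2.24e-12). The 2 groups of arrays did not overlap. Gata1, the zinc finger factor of erythroid and megakaryocytic cells, read 6.14 and 6.03 in CD4+ T cells, against 10.48, 10.54, 10.96 and 10.65 in PreMegE, with a difference of -4.57 ± 0.16 (adjusted p = 5.39e-12). The mean of Klf1 was 11.37 in PreMegE, 7.83 in HSC and 4.85 in MPP, so the CD4+ T cell mean of 4.75 was close to the MPP mean. For Gata1 the CD4+ T cell mean of 6.09 was likewise close to the MPP mean of 5.96, against 9.48 in HSC and 10.66 in PreMegE.

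The genes of the sorted surface proteins followed the gates in part. Cd4, the co-receptor the T cells were sorted on, read 9.11 and 9.49 on the CD4+ T cell arrays, against 4.89, 4.76, 4.50 and 4.90 on the PreMegE arrays, and rose by 4.54 ± 0.20. Kit, the receptor of stem cell factor, read 4.03 and 2.89 in CD4+ T cells, against 9.84, 9.66, 10.46 and 10.13 in PreMegE, and fell by 6.56 (SE 0.28). Ptprc, the pan-leukocyte phosphatase CD45, rose by 2.06 ± 0.19. Eng and Itga2b encode CD105 and CD41, the 2 antigens the PreMegE gate excludes, yet both were lower in CD4+ T cells, by differences of -2.41 ± 0.25 and -3.36 ± 0.19. Itga2b read 4.91 and 5.28 on the CD4+ T cell arrays, against 8.14, 8.32, 8.82 and 8.52 on the PreMegE arrays, so the groups were well apart in a gene for which the PreMegE cells were gated negative at the surface. Slamf1, which encodes the CD150 of the PreMegE gate, is also a receptor of T cells, and read 7.25 and 7.07 in CD4+ T cells, against 6.58, 6.79, 7.02 and 6.91 in PreMegE. Its difference of 0.34 ± 0.17 was not called (adjusted p = 0.166), while its MPP mean was 3.72. Cd8a was not called (0.06 ± 0.18), whereas Cd8b1, the other chain of CD8, which the T cell gate excludes, rose to 5.12 and 5.38 on the CD4+ T cell arrays, against 3.05, 3.35, 2.71 and 3.37 on the PreMegE arrays.

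The sequence just before the start of 5 genes is shown because these genes stand for the 2 sides of the comparison: Cd3g and Cd3d, a divergent pair of CD3 chains whose starts lie 1355 bases apart, and Klf1, Gfi1b and Epor, which belong to the erythroid side. Each is the 250 bases before the RefSeq start in GRCm38.p6, read 5′ to 3′ on the strand of the gene, with any match to the GATA motifs AGATAA or TGATAA in capitals, on either strand. The windows are chr9:44980432-44980681 on the minus strand for Cd3g, chr9:44981536-44981785 on the plus strand for Cd3d, chr8:84901732-84901981 on the plus strand for Klf1, chr2:28621983-28622232 on the minus strand for Gfi1b, and chr9:21963577-21963826 on the minus strand for Epor.
Cd3g: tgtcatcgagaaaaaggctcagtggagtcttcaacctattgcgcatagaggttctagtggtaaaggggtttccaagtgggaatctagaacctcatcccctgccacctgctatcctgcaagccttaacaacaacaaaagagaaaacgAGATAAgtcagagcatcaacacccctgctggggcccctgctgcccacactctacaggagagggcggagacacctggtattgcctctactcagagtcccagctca
Cd3d: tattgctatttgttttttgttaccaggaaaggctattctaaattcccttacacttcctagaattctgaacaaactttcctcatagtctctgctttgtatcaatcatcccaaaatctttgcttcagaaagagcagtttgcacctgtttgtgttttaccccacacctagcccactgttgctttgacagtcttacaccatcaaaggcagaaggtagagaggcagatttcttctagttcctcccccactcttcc
Klf1: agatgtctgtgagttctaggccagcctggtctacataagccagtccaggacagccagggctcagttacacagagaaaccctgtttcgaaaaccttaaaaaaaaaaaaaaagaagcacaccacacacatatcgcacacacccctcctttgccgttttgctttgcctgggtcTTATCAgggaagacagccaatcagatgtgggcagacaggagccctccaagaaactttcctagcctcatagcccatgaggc
Gfi1b: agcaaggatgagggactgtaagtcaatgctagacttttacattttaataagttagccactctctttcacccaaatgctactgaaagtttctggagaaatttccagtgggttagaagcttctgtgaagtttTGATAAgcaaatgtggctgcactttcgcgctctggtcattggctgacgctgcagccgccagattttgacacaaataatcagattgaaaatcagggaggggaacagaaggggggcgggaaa
Epor: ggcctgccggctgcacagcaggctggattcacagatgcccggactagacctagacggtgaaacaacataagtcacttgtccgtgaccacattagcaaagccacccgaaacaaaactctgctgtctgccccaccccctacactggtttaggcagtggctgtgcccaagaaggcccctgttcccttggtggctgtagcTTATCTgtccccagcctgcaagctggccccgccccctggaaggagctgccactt

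A GATA motif stood in the windows of Cd3g, Klf1, Gfi1b and Epor, and none in those of Cd3d and Gata1. Among all genes tested with a RefSeq window, 1995 of 14452 held at least 1 match (13.8%). The share was 185 of 1428 (13%) for genes called at least 2-fold higher in CD4+ T cells and 179 of 1434 (12.5%) for those called at least 2-fold lower, both near the share of all genes. It was 12 of 20 (60%) for genes of the red cell membrane, globins and blood groups, 9 of 25 (36%) for the GATA and TAL1 regulators, and 1 of 10 (10%) for the T cell receptor complex. A gene counted where any of its windows matched, so genes with several starts had more chances. By window the share was 2133 of 18109 (11.8%) over all genes. It was 13 of 24 (54.2%) for the red cell list, 9 of 41 (22%) for the regulators and 1 of 11 (9.09%) for the T cell receptor complex. A match to 6 letters describes the window and is no bound site, and these shares were not tested.

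The 15 genes that rose most in CD4+ T cells included chains of the T cell receptor and a factor of the T lineage. Trbv1, a variable segment of the T cell receptor beta chain, read 12.33 and 12.64 on the CD4+ T cell arrays, against 2.63, 2.63, 2.62 and 2.53 on the PreMegE arrays, a difference of 9.88 ± 0.15 (adjusted p = 1.26e-15). On its second probe set Trbv1 was also called, with a much smaller difference of 2.02. Ms4a4b, a membrane protein of the MS4A family, read 12.54 and 12.72 in CD4+ T cells, against 2.88, 2.89, 2.62 and 2.75 in PreMegE, a rise of 9.85 ± 0.26 from a PreMegE level near the floor of the array. Il7r, the interleukin-7 receptor chain that keeps naive T cells alive, read 11.63 and 11.66 on the CD4+ T cell arrays, against 3.24, 3.28, 3.12 and 3.25 on the PreMegE arrays, a rise of 8.42 ± 0.21. Both T cell arrays stood above the PreMegE arrays in all 15 by the rule that picked them, which took called genes without overlap. Bcl11b, the factor that commits a progenitor to the T lineage, read 11.29 and 11.57 in CD4+ T cells, against 3.32, 3.41, 3.31 and 3.54 in PreMegE, with a difference of 8.04 ± 0.17 (adjusted p = 2.9e-14). Ccr7, the chemokine receptor that guides lymphocytes into the T cell zone, read 10.78 and 11.13 on the CD4+ T cell arrays, against 3.32, 3.10, 3.07 and 3.15 on the PreMegE arrays, a rise of 7.80 ± 0.17. Rasgrp1, which couples the receptor to Ras, rose by 8.01 ± 0.22 on its brightest probe set and by 0.92 on the next. The 15 largest rises also held Kbtbd11 (8.79), Cd2 (8.29), Cd3g (8.25), Ms4a6b (8.20), Cd5 (7.87), Thy1 (7.86), Cd3d (7.62), the interferon-inducible Ifi209 (7.55) and Gimap7 (7.52).

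Of the 15 largest rises, 9 were called lower in PreMegE than in the mean of HSC and MPP and 0 higher. Over all genes 20.5% were called lower in that contrast and 14.8% higher. Of the 15 largest falls, named below, 9 were called higher in it and 2 lower. Among the 15 rises Kbtbd11 and Ms4a6b had the largest differences between PreMegE and the mean of HSC and MPP. Kbtbd11, a Kelch and BTB domain protein, averaged 12.65 in CD4+ T cells, 3.86 in PreMegE, 8.22 in HSC and 9.41 in MPP. Ms4a6b averaged 12.16 in CD4+ T cells, 3.96 in PreMegE, 7.46 in HSC and 8.81 in MPP. PreMegE stood below the mean of HSC and MPP in both genes, with differences of -4.95 and -4.17 (adjusted p = 1.15e-11 and 3.87e-11) in a contrast that called 6417 of 18193 genes (35.3%). That contrast shares the PreMegE arrays with the one against CD4+ T cells, so its values are given side by side and are not independent of it. Genes picked as rises tend to have low PreMegE values, so a lean to the lower side is in part built in, and for the falls the reverse holds.

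The 15 genes that fell most in CD4+ T cells included red cell genes and regulators of progenitors, beside genes of no list. Car1, the carbonic anhydrase of early red cell precursors, read 3.83 and 3.76 in CD4+ T cells, against 12.38, 12.60, 12.83 and 12.87 in PreMegE, the largest fall at -8.87 ± 0.26 (adjusted p = 4.91e-13). Tfr2, an iron-sensing transferrin receptor that associates with the erythropoietin receptor, read 2.86 and 3.04 on the CD4+ T cell arrays, against 11.03, 11.01, 11.40 and 10.87 on the PreMegE arrays. Mfsd2b, the exporter of sphingosine-1-phosphate in red cells and platelets, read 3.11 and 3.56 in CD4+ T cells, against 10.54, 10.31, 10.89 and 10.33 in PreMegE. The 15 were picked from called genes whose groups of arrays did not overlap, so the lack of overlap was fixed by the choice. Angpt1, the ligand of the Tie2 receptor, fell by 6.90 (SE 0.18). Hoxa9, the homeobox factor of stem and progenitor cells, read 2.95 and 3.33 on the CD4+ T cell arrays, against 9.33, 9.81, 10.05 and 9.77 on the PreMegE arrays, but its second probe set gave -0.68 and was not called. The others among the 15 largest falls were Hacd1, an enzyme of very long chain fatty acid synthesis (-7.91), Tnfaip2 (-7.50), Prkar2b, a regulatory subunit of protein kinase A (-7.28), Tmem40 (-7.04), Osbpl1a, an oxysterol-binding protein (-6.87), the mucin Muc13 (-6.85), Ifitm2 (-6.67), Klf1 (-6.62), the carboxylesterase Ces2g (-6.56) and the lectin receptor Clec4d (-6.52). Ces2g averaged 3.44 in CD4+ T cells, against 10.0 in PreMegE, 5.95 in HSC and 3.44 in MPP, so PreMegE was the highest of the 4 populations. In 17 of these 30 largest differences the lower population's mean lay under the lower quartile of its own gene means (3.27 in CD4+ T cells and 3.32 in PreMegE), near the floor of the array.

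The gene lists below are read against the shares of all genes, 16.3% higher and 16.8% lower. The bar chart of the lists gives the same shares for each. Genes of the sorted surface proteins (Cd4, Kit, Eng, Itga2b and Cd8b1 among them) and Cd3g, Klf1 and Gata1 are counted in the lists that hold them.

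**Figure D2:**
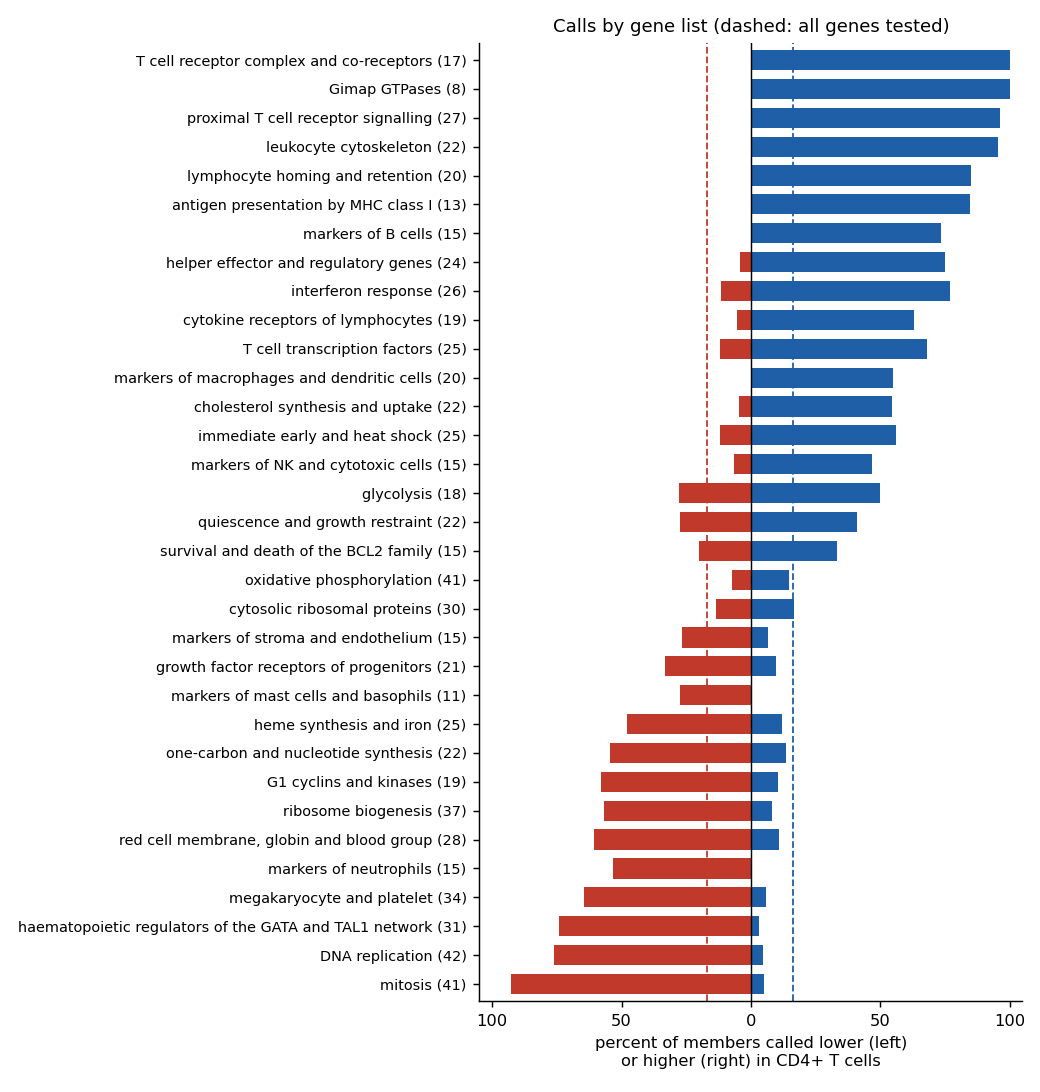
Percent of the measured members of each gene list that were called lower (bars to the left) or higher (bars to the right) in CD4+ T cells against PreMegE, with the number measured in brackets and dashed lines at the shares of all genes tested. The T cell receptor complex and the Gimap genes reach 100% higher, and mitosis, DNA replication and the GATA and TAL1 regulators have the longest bars to the left.

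The T cell receptor and its co-receptors, Cd3g and the gated Cd4 among them, rose as a whole list. Of 17 measured members 17 were higher and 0 lower, with a median difference of 6.59, against -0.06 over all genes. The zeta chain gene Cd247 read 10.55 and 10.68 in CD4+ T cells, against 3.73, 3.44, 3.57 and 3.37 in PreMegE. Cd28, the co-stimulatory receptor, read 9.34 and 10.28 on the CD4+ T cell arrays, against 2.62, 3.18, 2.44 and 3.39 on the PreMegE arrays, and Icos, its inducible relative, rose by 6.59 ± 0.30. The inhibitory receptors rose too, with differences of 6.75 ± 0.24 for Btla and 5.05 ± 0.25 for Ctla4. Cd3e, the third CD3 chain, read 8.23 and 8.69 in CD4+ T cells, against 5.61, 5.57, 5.19 and 5.54 in PreMegE, so that its difference of 2.99 ± 0.19 was well below those of Cd3g and Cd3d. The smallest rise was that of Cd160, at 0.83 ± 0.22 (adjusted p = 0.00733), and its call ended without the second CD4+ T cell array. Where these genes had a second probe set, 5 of 5 were called in the same direction.

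**Figure D3:**
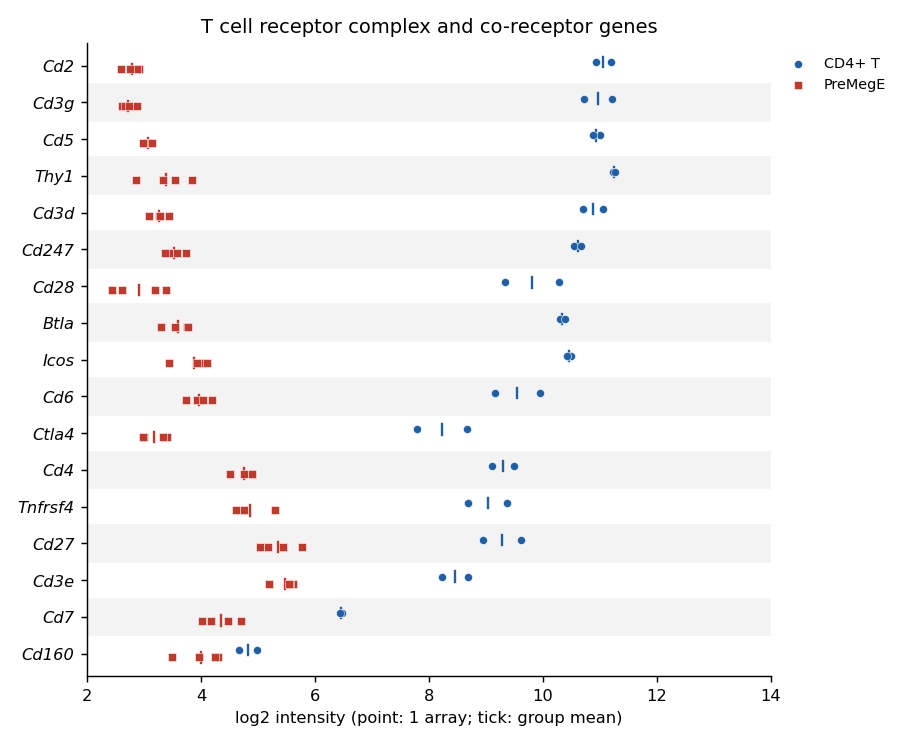
Log2 intensity of the 17 measured T cell receptor complex and co-receptor genes, with 1 point per array for the 2 CD4+ T cell and the 4 PreMegE arrays and a tick at each group's mean. Both CD4+ T cell arrays lie above all 4 PreMegE arrays in the 17 genes, where 20.5% of all genes do. The gap narrows from Cd2 at the top to Cd160 at the bottom.

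The kinases and adaptors just below the receptor rose as well. Of 27 measured members 26 were higher and 0 lower, with a median difference of 3.37. Dgka, the diacylglycerol kinase that restrains the signal, read 12.24 and 12.41 on the CD4+ T cell arrays, against 4.92, 5.49, 5.81 and 5.43 on the PreMegE arrays, with a difference of 6.91 ± 0.23 (adjusted p = 1.93e-12). Skap1, an adaptor that links the receptor to integrins, read 10.02 and 10.34 in CD4+ T cells, against 3.22, 3.07, 2.76 and 3.31 in PreMegE. Lat, the scaffold on which the signal assembles, read 10.81 and 10.39 on the CD4+ T cell arrays, against 6.63, 6.37, 6.72 and 6.64 on the PreMegE arrays. Sh2d1a, the adaptor SAP of the SLAM receptors, rose by 6.07 ± 0.18, Txk, a tyrosine kinase, by 5.18 ± 0.21, and Prkcq, the protein kinase C isoform of the synapse, by 3.19 ± 0.15. The exception was Zap70, the kinase that docks on the phosphorylated CD3 chains. Its brightest probe set read 5.72 and 6.01 in CD4+ T cells, against 6.63, 6.39, 6.10 and 6.26 in PreMegE, a difference of -0.48 ± 0.20 that was not called (adjusted p = 0.0755), whereas its second probe set gave 3.07 (adjusted p = 3.47e-08). For Nfatc2, a calcium-regulated factor, the brightest probe set gave 5.14 and the next -0.40, which was not called. For Plcg1, the phospholipase that releases calcium, they gave 1.75 and -0.77, both called, in opposite directions. Among the 18 called members with a second probe set, 15 kept the direction and the call. The 2 smallest rises depended on single arrays: Bcl10 (0.85) was not called without the first T cell array, and Nfatc3 (0.63) not without either of them or without PreMegE array 1 or 2.

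Transcription factors of T cells moved in both directions. Of 25 measured members 17 were higher, 3 lower and 5 not called, with a median of 1.78. Klf2, which keeps T cells quiescent and recirculating, read 10.58 and 10.07 on the CD4+ T cell arrays, against 4.07, 3.87, 3.63 and 3.51 on the PreMegE arrays, with a difference of 6.56 ± 0.59 (adjusted p = 2.45e-07). Ets1 read 10.72 and 10.86 in CD4+ T cells, against 5.53, 4.67, 4.92 and 4.94 in PreMegE, and Id2, an inhibitor of E proteins, 10.01 and 9.51 on the CD4+ T cell arrays, against 3.34, 4.04, 3.01 and 3.35 on the PreMegE arrays. All 3 separated the groups by a wide margin. Lef1, which acts with TCF1 in the T lineage, rose by 5.13 ± 0.19, Id3 by 5.15 ± 0.23, and the chromatin organiser Satb1 by 4.76 ± 0.19. Gata3, the GATA factor of T cells, read 6.94 and 6.98 in CD4+ T cells, against 3.50, 3.74, 3.69 and 3.76 in PreMegE, and rose by 3.29 ± 0.14, while Gata1 and Gata2 fell. Zbtb7b, the factor that fixes the CD4 fate in the thymus, rose by 1.25 ± 0.19. The 3 that fell were Patz1 (-1.59), the E protein Tcf3 (-1.47) and Runx3 (-1.43), and the second probe sets of Tcf3 (-0.43) and Runx3 (0.43) were not called. Without the first CD4+ T cell array Patz1 differed by -0.90, and without the second Tcf3 differed by -0.95. Runx1 differed by -0.20 ± 0.19 and was not called. Ikzf3, a lymphoid Ikaros factor, gave -0.20 on the brightest probe set, not called, and 4.0 on the next, which was.

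Genes of helper function, homing and cytokine sensing rose in most cases. Of 24 helper effector and regulatory genes 18 were higher and 1 lower (median 2.66). Of the 7 called members with a second probe set, 2 were called in the same direction by it and 5 were not called by it. The PreMegE mean of 13 of the 24 genes lay under the lower quartile of gene means, near the floor of the array. With the lowest genes left out 7 of the 24 remained, 5 higher and 1 lower. Maf, a factor of helper subsets, read 10.02 and 9.97 on the CD4+ T cell arrays, against 3.68, 3.64, 4.04 and 3.52 on the PreMegE arrays, though its second probe set gave 0.07 and was not called. Cd69, which holds lymphocytes in tissue, read 8.80 and 8.43 in CD4+ T cells, against 3.55, 2.92, 3.26 and 4.01 in PreMegE, and Pdcd1, the inhibitory receptor PD-1, 7.41 and 6.85 on the CD4+ T cell arrays, against 3.18, 3.04, 2.57 and 2.75 on the PreMegE arrays. The one that fell was Cd44, an adhesion receptor of activated and memory T cells that progenitors also carry, at -1.19 ± 0.21. Genes that define single helper subsets were among the higher ones, with differences of 3.09 ± 0.19 for Tbx21, 3.29 ± 0.17 for Foxp3 and 2.72 ± 0.26 for Bcl6 (0.03 and no call on its second probe set), whereas Il17a (-0.04), Il5 (0.01) and Il13 (0.12) were not called.

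Of 20 genes of homing and retention 17 were higher and 0 lower (median 2.90), among them Emb (6.58 ± 0.29), Cxcr3 (5.96 ± 0.18), Cxcr5 (5.14 ± 0.21) and Cxcr6 (4.81 ± 0.17). S1pr1, the receptor by which lymphocytes leave organs, rose by 4.53 ± 0.25. Cxcr4, which retains cells in marrow, was not called, at -0.23 ± 0.22. Of 19 cytokine receptor genes 12 were higher and 1 lower (median 1.22). Behind Il7r came Il6st, the shared chain gp130, with 6.03 ± 0.21, but its second probe set gave 0.21 and was not called. Il18r1 read 8.45 and 7.46 in CD4+ T cells, against 3.34, 3.53, 3.23 and 3.23 in PreMegE, a rise of 4.63 ± 0.27. Ifngr1, the ligand-binding chain of the interferon-gamma receptor, went the other way, with 8.55 and 8.29 on the CD4+ T cell arrays, against 9.78, 9.85, 10.22 and 9.76 on the PreMegE arrays and a difference of -1.49 ± 0.17.

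The Gimap genes, which encode GTPases needed for the survival of lymphocytes, rose together. All 8 measured members were higher, with a median of 5.76, and they lie in 1 cluster on chromosome 6 in which 8 of the 10 genes from the first to the last measured one are named Gimap. Gimap4 read 11.90 and 12.02 in CD4+ T cells, against 4.64, 4.69, 4.21 and 4.79 in PreMegE, with a difference of 7.37 ± 0.20 (adjusted p = 2.82e-13). Gimap8 averaged 11.61 in CD4+ T cells, 5.05 in PreMegE, 9.16 in HSC and 8.37 in MPP, so that PreMegE was the lowest of the 4 populations. The other differences were 7.52 for Gimap7, 6.25 for Gimap3, 5.27 for Gimap6, 3.68 for Gimap1, 2.75 for Gimap5 and 2.57 for Gimap9.

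Genes of the leukocyte cytoskeleton were higher in 21 of 22 cases and lower in 0 (median 2.13). Coro1a, an actin regulator of leukocytes, read 12.99 and 12.55 on the CD4+ T cell arrays, against 8.29, 8.46, 9.25 and 8.87 on the PreMegE arrays, and Lcp1, an actin bundler, 12.0 and 12.08 in CD4+ T cells, against 7.46, 7.41, 7.82 and 7.97 in PreMegE. In both genes PreMegE was the lowest of the 4 populations, since HSC and MPP averaged 11.11 and 11.87 for Coro1a and 10.33 and 11.23 for Lcp1. Evl rose by 7.46 ± 0.21, and Rac2, a regulator of the actin cytoskeleton in blood cells, by 3.53 ± 0.17, with 0.26 and no call on its second probe set. Of 13 genes of antigen presentation by MHC class I 11 were higher and 0 lower (median 1.06), with differences of 2.13 ± 0.16 for the immunoproteasome subunit Psmb8, 1.42 ± 0.21 for the peptide transporter chain Tap2 and 1.28 ± 0.19 for H2-D1. Of 26 interferon response genes 20 were higher and 3 lower (median 1.02). Ifit3 rose by 3.45 ± 0.20 and Irf1 by 2.09 ± 0.16, while Oasl2, an antiviral protein, fell (-1.35 ± 0.19).

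Most regulators of the progenitor state were lower in CD4+ T cells, on a list that includes Klf1 and Gata1. Of 31 measured members of the GATA and TAL1 list 23 were lower and 1 higher, with a median of -3.32. Lmo2, the bridging subunit of the TAL1 complex, read 5.41 and 5.82 on the CD4+ T cell arrays, against 11.28, 11.50, 11.24 and 11.60 on the PreMegE arrays, with a difference of -5.79 ± 0.17 (adjusted p = 5.19e-13). Tal1 read 3.97 and 4.09 in CD4+ T cells, against 9.71, 9.40, 9.39 and 9.47 in PreMegE, and Cbfa2t3, a co-repressor of the same complex, 4.58 and 4.29 on the CD4+ T cell arrays, against 10.0, 9.42, 10.18 and 9.32 on the PreMegE arrays. Nfe2, the leucine zipper factor of platelet release, read 3.69 and 4.08 in CD4+ T cells, against 10.06, 9.65, 10.09 and 9.92 in PreMegE. In each of them the CD4+ T cell arrays lay far below. Gata2 fell by 4.63 (SE 0.15), the GATA cofactor Zfpm1 by 2.86 (SE 0.19) and Gfi1b, the repressor of the erythroid and megakaryocytic lines, by 5.18 (SE 0.20). Myb, a factor of proliferating progenitors, read 8.47 and 8.25 on the CD4+ T cell arrays, against 12.51, 12.72, 12.80 and 12.46 on the PreMegE arrays, and fell by 4.26 (SE 0.16). Ldb1, the partner that completes the TAL1 and LMO2 complex, was not called, with 7.75 and 8.55 in CD4+ T cells, against 7.91, 7.85, 8.74 and 8.50 in PreMegE and overlapping groups. Meis1 (-6.50) and Bcl11a (-6.04) fell on both of their probe sets. Erg fell by 4.70 and Mycn by 4.37 on the brightest probe set, with -0.54 and 0.15 and no call on the next.

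The paralogues Gfi1 and Gfi1b, 2 closely related repressors, moved in opposite directions. Gfi1 read 6.90 and 6.34 on the CD4+ T cell arrays, against 2.78, 2.80, 2.78 and 2.87 on the PreMegE arrays, the single rise of the list, with a difference of 3.81 ± 0.27 (adjusted p = 1.46e-08). It averaged 5.0 in HSC and 6.46 in MPP, so PreMegE was the lowest of the 4 populations. The pair Bcl11a and Bcl11b behaved alike in this respect, Bcl11b rising by 8.04 and Bcl11a falling by 6.04. The genes that fell differed in how PreMegE stood to the other progenitors. Klf1, Gata1 and Gata2 were called higher in PreMegE than in the mean of HSC and MPP, by 5.03, 2.94 and 1.05. Hoxa9, Meis1 and Lyl1 were called lower there (-2.05, -1.09 and -0.95), and still were higher in PreMegE than in CD4+ T cells. Mecom, a stem cell factor, averaged 3.40 in CD4+ T cells and 4.17 in PreMegE, against 9.72 in HSC. Its difference of -0.78 ± 0.24 was called (adjusted p = 0.0203), but not without the second CD4+ T cell array and not on its second probe set.

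Red cell genes were mostly lower, with a few that rose. Of 28 measured genes of the red cell membrane, globins and blood groups 17 were lower and 3 higher, with a median of -1.91. Aqp1, the water channel of red cells, read 3.52 and 4.02 in CD4+ T cells, against 9.76, 10.11, 10.02 and 10.42 in PreMegE, and Ermap, a blood group protein, 4.62 and 5.23 on the CD4+ T cell arrays, against 10.51, 11.05, 11.13 and 11.22 on the PreMegE arrays. Rhag, the Rh-associated glycoprotein, fell by 5.30 (SE 0.25), and Epor, the erythropoietin receptor, read 4.39 and 4.59 in CD4+ T cells, against 7.59, 6.85, 8.10 and 7.71 in PreMegE and fell by 3.07 (SE 0.27). The globin gene Hba-a1 read 2.90 and 3.18 on the CD4+ T cell arrays, against 3.27, 3.29, 2.80 and 2.79 on the PreMegE arrays, a difference of 0.00 ± 0.19 that was not called. The 3 genes of the list that rose were Slc4a1, Trim10 and the embryonic globin gene Hbb-bh1, the last by 0.62 ± 0.21, with 0.23 and no call on its second probe set. The call of Hbb-bh1 also ended without the second CD4+ T cell array and without PreMegE array 2. Slc4a1, the anion exchanger band 3, read 6.13 and 8.54 in CD4+ T cells, against 3.20, 3.27, 3.08 and 3.23 in PreMegE, and Trim10 5.22 and 7.32 on the CD4+ T cell arrays, against 4.23, 4.21, 3.49 and 3.84 on the PreMegE arrays. Alas2 of the heme list, the erythroid enzyme that opens heme synthesis, read 7.42 and 9.35 in CD4+ T cells, against 3.37, 3.07, 3.22 and 3.07 in PreMegE. Slc4a1, Trim10 and Alas2 were higher on both CD4+ T cell arrays than on any PreMegE array, and in these 3 the second CD4+ T cell array was the higher one. Without it the difference of Trim10 was 1.28, against 2.33 with both arrays. Car2 differed between the T cell arrays in the same way, with 7.43 and 9.26 on the CD4+ T cell arrays, against 11.26, 11.37, 11.55 and 11.58 on the PreMegE arrays, while it fell overall. The part of red cell RNA in the spleen sort was not tested.

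Heme and iron genes fell in part. Of 25 measured members 12 were lower and 3 higher (median -0.32). Alad, the second enzyme of heme synthesis, fell by 3.33 (SE 0.23), Slc40a1, the iron exporter ferroportin, by 2.35 (SE 0.39) and Blvrb, biliverdin reductase B, by 2.28 (SE 0.22). The second probe set of Slc40a1 gave -0.66 and no call. Fth1, the ferritin heavy chain, rose by 0.57 ± 0.15, a call that ended without the second CD4+ T cell array.

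Of 34 megakaryocyte and platelet genes 22 were lower and 2 higher (median -1.13). Rgs18, a G protein regulator of platelets, read 3.88 and 3.15 in CD4+ T cells, against 9.72, 9.87, 9.60 and 9.90 in PreMegE, and Vwf, the platelet adhesion protein, 2.71 and 2.79 on the CD4+ T cell arrays, against 6.87, 7.22, 7.88 and 7.21 on the PreMegE arrays. Neither gene had overlapping groups. Several genes of the finished platelet were not called, among them Ppbp (0.07 ± 0.21), P2ry12 (-0.01 ± 0.20) and Clec1b (-0.06 ± 0.18). Pf4, platelet factor 4, read 4.81 and 5.66 in CD4+ T cells, against 6.71, 6.99, 6.70 and 6.41 in PreMegE. Itgb3, the partner chain of CD41, rose by 5.34 ± 0.32 on its brightest probe set, with 0.46 and no call on the next, and the tetraspanin Cd9 rose by 1.28 ± 0.16. Of 21 growth factor receptors of progenitors 7 were lower and 2 higher. Tek, the Tie2 receptor of Angpt1, read 2.78 and 2.55 on the CD4+ T cell arrays, against 6.25, 6.55, 6.90 and 7.11 on the PreMegE arrays, and Igf1r fell by 2.93 (SE 0.22). Tnfrsf1b rose by 2.17 ± 0.19, with no call on its second probe set (0.08).

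Most genes of cell division were lower in CD4+ T cells. Of 41 mitosis genes 38 were lower and 2 higher (median -2.26), and of 42 DNA replication genes 32 were lower and 2 higher (median -1.40). Cks2, a subunit of cyclin-dependent kinases, read 7.85 and 6.89 in CD4+ T cells, against 11.44, 11.49, 11.46 and 11.36 in PreMegE, with a difference of -4.07 ± 0.22 (adjusted p = 5.19e-10). Cdc20, the activator of the anaphase-promoting complex, read 6.49 and 6.53 on the CD4+ T cell arrays, against 10.08, 10.14, 10.42 and 10.05 on the PreMegE arrays. Cdc6, which loads the replicative helicase, read 3.88 and 3.49 in CD4+ T cells, against 7.20, 7.71, 8.03 and 7.86 in PreMegE. The groups were apart in all 3. Mki67, the proliferation antigen, fell by 3.02 (SE 0.24) and Uhrf1, which maintains DNA methylation, by 2.99 (SE 0.19). Kif2c (-3.89) and Ccna2 (-3.81) fell as well, with -0.59 and -0.55 and no call on their second probe sets. The 2 mitosis genes that rose were Pttg1, securin, by 1.44 ± 0.21, and the condensin subunit Smc4, by 1.14 ± 0.24. The 2 replication genes that rose were Gins4, a subunit of the replicative helicase, by 0.74 ± 0.18, and Rpa1, which binds single-stranded DNA, by 0.63 ± 0.18, a call that ended without the second CD4+ T cell array. Pcna, the sliding clamp, was not called, at -0.08 ± 0.18.

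The G1 regulators divided. Of 19 measured members 11 were lower and 2 higher (median -1.15). Cdk6 read 7.41 and 7.36 on the CD4+ T cell arrays, against 11.83, 11.91, 12.64 and 12.27 on the PreMegE arrays, with a difference of -4.78 ± 0.20 (adjusted p = 3.51e-11), while Ccnd3, the cyclin D of T cells, read 9.26 and 9.29 in CD4+ T cells, against 7.73, 7.71, 8.01 and 7.80 in PreMegE and rose by 1.46 ± 0.16. E2f8 fell by 5.87 on its brightest probe set, with -0.22 and no call on the next. Of 22 genes of quiescence and growth restraint 9 were higher and 6 lower (median 0.35). The Schlafen gene Slfn2, which holds T cells in a resting state, read 11.13 and 11.05 on the CD4+ T cell arrays, against 5.53, 5.08, 4.88 and 4.91 on the PreMegE arrays, and Btg2, an antiproliferative protein, 9.33 and 9.25 in CD4+ T cells, against 5.75, 4.50, 5.25 and 5.24 in PreMegE. Foxo3 fell by 2.21 (SE 0.15), while Foxo1, a factor of naive T cells, rose by 3.17 ± 0.18. Without the second CD4+ T cell array 4 members of this list were lower in place of 6. Of 15 BCL2 family genes 5 were higher and 3 lower (median -0.01), with Bcl2 at 0.98 ± 0.20 (1.63 and no call on its second probe set), Bmf at 1.19 ± 0.22 and Bnip3 at -2.24 ± 0.17.

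Genes of ribosome biogenesis and nucleotide synthesis leaned to the lower side. Of 37 genes of ribosome biogenesis 21 were lower and 3 higher (median -0.59), led by Dkc1, the pseudouridine synthase dyskerin (-1.83 ± 0.19), and Wdr12 (-1.67 ± 0.16). Of the 17 called members with a second probe set, 4 were called in the same direction by it and 12 were not called by it. Of 22 genes of one-carbon and nucleotide synthesis 12 were lower and 3 higher (median -0.51). Pfas, an enzyme of purine synthesis, fell by 2.13 (SE 0.25), but Mthfd2, the mitochondrial folate enzyme, read 8.73 and 8.32 on the CD4+ T cell arrays, against 6.56, 6.54, 6.42 and 6.72 on the PreMegE arrays and rose by 1.97 ± 0.16.

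Genes of glycolysis moved in both directions. Of 18 measured genes 9 were higher and 5 lower (median 0.34). Pkm, pyruvate kinase, read 10.04 and 10.14 in CD4+ T cells, against 6.42, 5.96, 7.14 and 6.67 in PreMegE, with a difference of 3.54 ± 0.24 (adjusted p = 8.02e-09). Ldhb, a lactate dehydrogenase chain, rose by 3.17 ± 0.23 and Pfkp, the platelet-type phosphofructokinase, by 2.73 ± 0.24. Its muscle-type isoform Pfkm fell by 1.49 (SE 0.17), and Hk2, a hexokinase, read 3.68 and 2.95 on the CD4+ T cell arrays, against 5.90, 5.83, 6.38 and 6.02 on the PreMegE arrays. Of 41 genes of oxidative phosphorylation 6 were higher and 3 lower (median 0.08), against 12 and 1 after cyclic loess normalisation and 11 and 1 where the probe sets of a gene were averaged. Of their 3 called members with a second probe set 0 were called in the same direction by it and 1 in the opposite one. Of 30 cytosolic ribosomal protein genes 5 were higher and 4 lower (median 0.21). The count was 16 higher and 1 lower after cyclic loess normalisation, 9 and 6 where probe sets were averaged, and 9 and 5 with a variance trend. Without the first CD4+ T cell array 0 of these were higher and 3 lower, without the second 2 were higher and 1 lower, and without PreMegE array 1 or 2 the count was 4 higher and 2 lower. The second probe set was called in the same direction for 2 of 6 called members and in the opposite one for 1. Of 22 genes of cholesterol synthesis and uptake 12 were higher and 1 lower (median 0.57), and 8 were higher and 2 lower without the second CD4+ T cell array. The second probe set was called in the same direction for 3 of 10 called members and not called for 7. Ebp, a sterol isomerase, rose by 1.85 ± 0.18, while Msmo1 rose by 2.54 on its brightest probe set and gave 0.23, not called, on the next.

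Immediate early and heat shock genes, which respond quickly to receptor signals and to stress, were higher in 14 of 25 cases and lower in 3 (median 1.43). Egr2 read 8.98 and 8.78 in CD4+ T cells, against 3.11, 2.83, 2.91 and 3.21 in PreMegE, and Fos 10.10 and 8.49 on the CD4+ T cell arrays, against 4.54, 6.19, 5.92 and 5.55 on the PreMegE arrays. Fos averaged 12.81 in HSC and 13.18 in MPP, far above both groups. Hspa1b, an inducible heat shock protein, read 7.53 and 10.44 in CD4+ T cells, against 4.60, 4.61, 4.87 and 4.50 in PreMegE, the most uneven of these between the T cell arrays, and its call ended without the second. Ier3 fell by 2.38 (SE 0.33).

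Markers of other blood cells differed between the groups, and their part in the results was not tested. The T cell gate excludes B220, a marker of B cells, and NK1.1, a marker of NK cells, and the PreMegE gate excludes cells with lineage markers. Of 15 B cell markers 11 were higher in CD4+ T cells and 0 lower (median 1.33). The log2 of their summed intensity ran from 12.51 to 12.67 on the CD4+ T cell arrays, against 7.55 to 9.75 on the PreMegE arrays. Ighm, the immunoglobulin mu chain, read 12.28 and 12.49 on the CD4+ T cell arrays, against 9.35, 3.57, 4.36 and 3.61 on the PreMegE arrays, so PreMegE array 1 stood apart from the other PreMegE arrays. Jchain, the joining chain of plasma cells, showed the same array, with 7.46 and 7.35 in CD4+ T cells, against 6.03, 3.27, 2.79 and 3.04 in PreMegE. Pou2af1, a B cell coactivator, rose by 4.63 ± 0.26 and Ms4a1, the antigen CD20, by 3.81 ± 0.19. Pax5 and Ebf1, which define the B lineage, were not called, with 3.46 and 3.37 on the CD4+ T cell arrays, against 4.13, 4.16, 3.41 and 3.94 on the PreMegE arrays for Pax5 and differences of -0.50 and -0.04.

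Of 20 markers of macrophages and dendritic cells 11 were higher and 0 lower (median 0.75), a count that was 17 and 0 after quantile normalisation. The MHC class II genes led them. H2-Aa read 11.07 and 10.65 in CD4+ T cells, against 6.23, 5.72, 5.79 and 5.88 in PreMegE, with a difference of 4.96 ± 0.26 (adjusted p = 4.81e-10), and Cd74, the invariant chain, read 8.89 and 8.14 on the CD4+ T cell arrays, against 4.45, 4.07, 4.33 and 4.17 on the PreMegE arrays. Csf1r, the receptor of macrophage growth factor, read 8.29 and 8.25 in CD4+ T cells, against 5.71, 5.02, 6.07 and 5.28 in PreMegE. Both T cell arrays were higher than the PreMegE arrays in all 3. The summed intensity of the list was 11.71 to 12.23 on the CD4+ T cell arrays, against 8.96 to 9.17 on the PreMegE arrays, in log2. Of 15 NK and cytotoxic markers 7 were higher and 1 lower (median 0.48), with summed levels of 10.31 to 10.72 on the CD4+ T cell arrays, against 9.50 to 9.71 on the PreMegE arrays. Klrd1, the receptor chain CD94, read 8.83 and 8.04 on the CD4+ T cell arrays, against 3.31, 3.02, 2.98 and 3.03 on the PreMegE arrays, and Ccl5, a chemokine of effector cells, rose by 4.34 ± 0.24. Nkg7, a granule protein, fell by 1.54 (SE 0.17), and Ncr1, which defines NK cells, was not called (0.09 ± 0.20).

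Markers of neutrophils were on the PreMegE side. Of 15 measured members 8 were lower in CD4+ T cells and 0 higher (median -2.33), and 5 were lower without the first CD4+ T cell array. Their summed log2 level was 7.61 to 8.10 on the CD4+ T cell arrays, against 9.67 to 11.55 on the PreMegE arrays. S100a8, a calcium-binding protein of neutrophils, read 3.86 and 5.01 in CD4+ T cells, against 9.44, 6.84, 7.33 and 7.89 in PreMegE, and Ngp, a granule protein, 4.60 and 5.22 on the CD4+ T cell arrays, against 9.76, 7.59, 8.75 and 8.61 on the PreMegE arrays. Mpo, the granule peroxidase, read 3.33 and 4.09 in CD4+ T cells, against 7.90, 5.23, 6.35 and 4.87 in PreMegE. PreMegE array 1 was the highest in these 3 genes, and the calls of S100a8 and Mpo ended without the first CD4+ T cell array. Of 11 mast cell and basophil markers 3 were lower and 0 higher (median -0.28), among them Cpa3, the mast cell carboxypeptidase, with 3.56 and 3.04 on the CD4+ T cell arrays, against 7.58, 7.51, 8.12 and 7.98 on the PreMegE arrays and a fall of 4.50 (SE 0.23), while the protease gene Mcpt8 was not called (-0.32 ± 0.24). Of 15 stromal and endothelial markers 4 were lower and 1 higher (median -0.28), and 2 were lower without the second CD4+ T cell array. Pdgfrb read 2.44 and 2.86 in CD4+ T cells, against 9.02, 8.78, 9.35 and 8.53 in PreMegE, a fall of 6.27 (SE 0.24), and Col1a2, a collagen chain, fell by 3.32 (SE 0.22). The collagen genes Col1a1 (-0.30) and Col3a1 (-0.16) were not called, and Pecam1 rose by 1.89 ± 0.29, or by 1.16 without the first CD4+ T cell array.

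The groups varied within themselves in a limited set of genes. Between the 2 CD4+ T cell arrays 627 genes differed by at least 2-fold, and over the 4 PreMegE arrays 1233 genes had a range of at least 2-fold. Apol11b, an apolipoprotein L, had the widest gap between the T cell arrays among the genes named here, with 3.91 and 7.56 on the CD4+ T cell arrays, against 2.54, 2.51, 2.52 and 2.53 on the PreMegE arrays, and its difference of 3.21 was 5.04 without the first array and 1.39 without the second. Penk, the enkephalin precursor, read 7.74 and 5.27 in CD4+ T cells, against 3.07, 3.08, 2.90 and 2.95 in PreMegE, and Anxa1, annexin A1, 6.19 and 3.65 on the CD4+ T cell arrays, against 8.42, 8.51, 8.28 and 8.59 on the PreMegE arrays. The first and the second T cell array thus differed in both directions. Penk differed from PreMegE by 3.50 with both T cell arrays and by 2.26 without the first, and Anxa1 by -3.53 with both and -2.26 without the second, with -0.35 and no call on its second probe set. Among PreMegE arrays the most variable genes included Ighm, Jchain, Chil3, S100a8 and Mpo, each highest on array 1, and Vcam1, an adhesion molecule, which read 6.76 and 5.46 in CD4+ T cells, against 4.57, 2.76, 5.25 and 3.81 in PreMegE and was not called. The dot plot of uneven genes shows these patterns array by array.

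**Figure D4:**
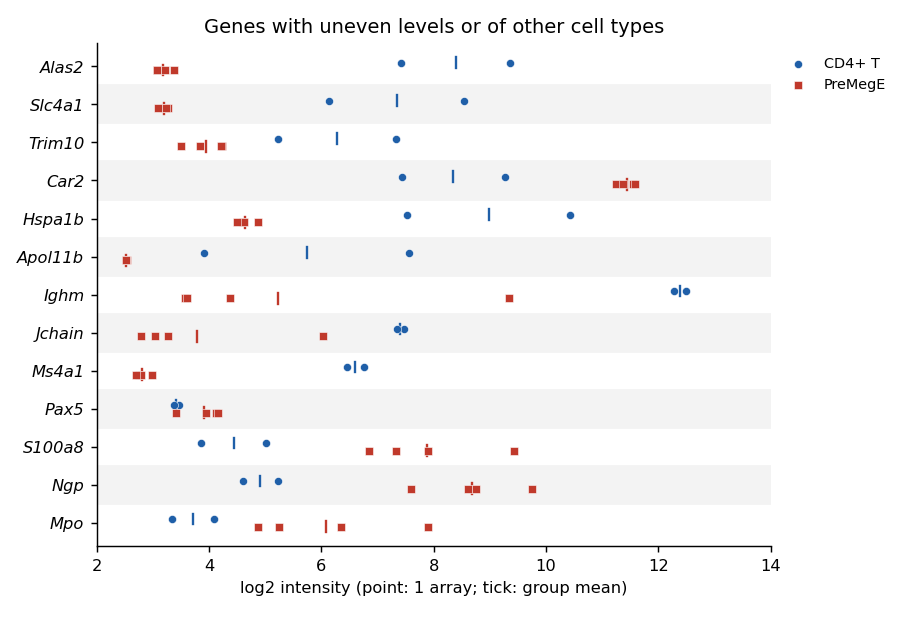
Log2 intensity of red cell, stress, B cell and neutrophil genes that were uneven between arrays or mark other cells, with 1 point per array for the 2 CD4+ T cell and the 4 PreMegE arrays and a tick at each group's mean. The second CD4+ T cell array is the higher one for Alas2, Slc4a1, Trim10, Car2, Hspa1b and Apol11b, and 1 PreMegE array stands above the other 3 for Ighm and Jchain.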

How the data were processed

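Total RNA of sorted cells was the starting material for 1 Affymetrix array per sample, and the authors deposited 1 linear intensity per probe set and array. Per the submitters' processing notes the intensities come from RMA, whose background, normalisation and summary steps have options not given in the sources used here. The log2 of each intensity was taken. Of 45101 probe sets, 64 were controls, 34945 carried 1 gene symbol in GEO's platform annotation, 932 several and 9160 none; all symbols with a RefSeq ID (34741 probe sets) were current, and each gene was read from its brightest single-symbol probe set over all 12 arrays, giving 18193 genes. Genes without such a probe set (Lck and Tcf7 among the lists) were not analysed here. limma 3.58.1 in R 4.3.3 fitted a mean per group on all 12 arrays (lmFit and eBayes, 8 residual and 6.96 prior degrees of freedom, two-sided), with Benjamini-Hochberg adjustment over all genes and a threshold of 0.05; the second contrast was PreMegE minus the mean of HSC and MPP. Arrays give no read depth, so their number limits the precision, and no detection calls were used.

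The members and gene lists were chosen with earlier results of these data known. The genes named are the sort markers with Cd3g, Klf1 and Gata1, the 15 genes that rose most and the 15 that fell most, taken from called genes with non-overlapping groups (no clone names, gene models, sort markers or sex-linked genes), members of the T cell receptor, signalling, T cell factor, GATA and TAL1 and Gimap lists, up to 5 called rises and 5 falls of each other list, and the 10 genes most uneven between the T cell arrays and over the PreMegE arrays. Tbx21, Foxp3, Bcl6, Il5, Il13, Il17a, S1pr1, Cxcr4, Car2, Hba-a1, Ppbp, P2ry12, Clec1b, Pf4, Mki67, Pcna, Pax5, Ebf1, Ncr1, Mcpt8, Col1a1 and Col3a1 were named after their values were seen. Promoter windows were matched by symbol for 14452 of 18193 genes. The alternatives were 2 further normalisations, the 6 compared arrays alone, a filter on low genes (mean log2 under 3.96), other probe set rules, other variance settings, a test against 2-fold, the last 2 PreMegE arrays averaged, 1 added before the log, a replicate block and each array left out.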

Additional observations from a re-analysis of the deposited data

Results flagged for a closer look

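Among the 212 genes named, 13 (6.13%) had 1 PreMegE array set apart from the other 3, the gap to the nearest array exceeding Dixon's critical share of the range. The share was 957 of 18193 genes (5.26%) over all genes, and chance alone sets apart about 1 in 20 groups of 4 arrays, so the share among the named genes was near both. Of the 13, 2 were among the genes named for their spread over the PreMegE arrays, Ighm and Jchain. PreMegE array 1 was the one apart in 7 of the 13. It was the highest for Ighm at 9.35, against 3.57 to 4.36 on the others, for Jchain at 6.03, against 2.79 to 3.27, for Klrd1 at 3.31, against 2.98 to 3.03, and for Fth1 at 11.40, against 11.11 to 11.16. It was the lowest for Mki67 at 10.33, against 11.14 to 11.26, for Evl at 2.68, against 3.07 to 3.09, and for Osbpl1a at 9.36, against 9.63 to 9.64. PreMegE array 3 was the highest for Mycn at 9.73, against 8.86 to 9.01, and for Bcl2 at 8.22, against 7.87 to 7.90, and the lowest for Gimap3 at 4.70, against 4.91 to 4.92. PreMegE array 2 was the highest for Foxp3 at 3.58, against 3.01 to 3.09, and for Ebf1 at 3.19, against 2.71 to 2.76. PreMegE array 4 was the lowest for Trbv1 at 2.53, against 2.62 to 2.63. Of these 13 genes 12 were called between CD4+ T cells and PreMegE, and Ebf1 was not. PreMegE array 1 also had the highest 3' over 5' actin ratio (4.65).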

How the results depend on the processing

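The number of genes called was within 1.5 times of 6030 under each alternative except 2. A test against a 2-fold difference called 1838 genes, 933 higher and 905 lower. The next brightest probe set, which exists for 9010 genes, called 2482 of them, 1372 higher and 1110 lower. Leaving out each array in turn gave 4971 to 6303 calls, 2527 to 3111 higher and 2360 to 3192 lower, and 5626 to 6702 calls for PreMegE against the mean of HSC and MPP. Over all settings the share of calls that were higher lay between 47.9% and 55.3%.

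Of the 309 called genes that the naming rule allows, 188 had a second probe set. On it 128 kept the call and the direction, 41 kept the direction but lost the call, and 19 turned, 4 of them called in the opposite direction. The call was lost by 20 without the first CD4+ T cell array, 25 without the second, and 83 in the test against 2-fold. Counting 2 genes that were not called on the brightest probe set, 21 turned on the second one, and those named above are Zap70 (3.07), Ikzf3 (4.0), Plcg1 (-0.77), Nfatc2 (-0.40), Runx3 (0.43) and Mycn (0.15). The mean of all probe sets turned 4 genes, Zap70 (2.45), Ikzf3 (1.51), Txnip (0.22, against -0.68) and Rps9 (0.47, against -0.52). Without the second CD4+ T cell array Ints12 turned (0.01, against -1.27). The cause was not tested. The 2 groups came from different studies, and the labels do not tie their replicate numbers to a shared animal or batch. Deviations of arrays with the same replicate number correlated at -0.12 and 0.07. With the number as a block, 5929 genes were called, 2998 higher and 2931 lower. For PreMegE against HSC and MPP the block gave 6029 calls. With 2 and 4 arrays a group, a gene that was not called is not shown to be equal.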
